A study of Mus musculus with 4 samples.

Results

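The Hox cluster genes of mouse colon adenoma organoids were followed across 2 genotypes. Hox genes encode homeodomain transcription factors that give cells their position along the body axis. They lie in 4 clusters, Hoxa, Hoxb, Hoxc and Hoxd, and members of different clusters that descend from one ancestral gene share a paralog number from 1 to 13. A gene was taken as a member when its whole symbol was Hox, a cluster letter and a paralog number, and where a gene had several probe sets the brightest on average stood for it. This gave 34 genes of the 17097 named on the array, with 9 from Hoxa, 10 from Hoxb, 6 from Hoxc and 9 from Hoxd. RefSeq lists 39 mouse Hox genes, and those for which no probe set was named were not analysed here.

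Within each cluster the genes stand in the order of their paralog numbers, and in the embryo that order follows the position along the head-to-tail axis at which each gene is active. Genes with high paralog numbers are therefore called posterior, and they pattern the hindgut, the urogenital tract and the distal limb. The adult intestinal epithelium retains part of this positional code, with posterior genes such as Hoxb13 and Hoxd13 typical of the distal colon.

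The organoids are 3D cultures of tumour epithelium on a C57BL/6 background. One pair of arrays, labelled Gata6 null/Apc null, came from VillinCreERT2 Gata6fl/fl Apcfl/fl organoids, and the other pair, labelled Apc null, from VillinCreERT2 Gata6+/+ Apcfl/fl organoids, so by label both groups lack Apc, the suppressor of Wnt signalling, and differ in Gata6, an endodermal GATA-type zinc finger factor. VillinCreERT2 is a ligand-inducible Cre recombinase under the Villin promoter, which restricts deletion to intestinal epithelium. Both groups were cultured for 7 days with EGF at 50 ng/ml and received a Rock inhibitor at 10 µM when passaged, and each of the batches, A and B, holds 1 array per group (2 arrays per group). The comparison addresses what loss of Gata6 does to expression in Apc-deficient adenoma cells.

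Array medians ran from 4.91 to 5.04 log2 units. The correlation across probe sets was 0.979 between the batch A arrays and 0.978 between the batch B arrays, against 0.976 within Gata6 null/Apc null and 0.975 within Apc null. Levels of the deleted gene ran against the labels. Gata6 read 9.37 and 9.40 (batch A, then batch B, as in all pairs of values below) on the arrays labelled Gata6 null/Apc null, against 8.89 and 8.61 on the Apc null arrays. Its other probe set read 9.11 and 9.21, against 8.83 and 8.65. The brightest of the Apc probe sets read 8.34 and 8.14 on the arrays labelled Gata6 null/Apc null, against 8.35 and 8.34 on the Apc null arrays, all above the filter level given below. The position of the Gata6 and Apc probes relative to the deleted exons is not given in the sources used here, so these readings check neither deletion, and every direction below rests on the labels alone. Markers of epithelium had a mean level of 10.50 and 10.50 on the arrays labelled Gata6 null/Apc null, against 10.89 and 10.78 on the Apc null arrays. The difference, Gata6 null/Apc null minus Apc null, was -1.57 for Cdx2 and lay between -0.26 and -0.01 for the other markers. All 9 of those markers passed the filter described next.

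Values are RMA log2 units, in which a difference of 1 is a doubling, and differences are Gata6 null/Apc null minus Apc null. A gene was tested when its mean reached 4.45, the 40th percentile of all probe sets. Of all 17097 named genes, 11874 reached that level. Of the 34 Hox genes, 21 reached it: 7 of Hoxa, 6 of Hoxb, 2 of Hoxc and 6 of Hoxd. By paralog number, 3 of the 11 genes numbered 1 to 4 reached the level, 6 of the 9 numbered 5 to 8, and 12 of the 14 numbered 9 to 13. The 13 genes below it were Hoxa2, Hoxa4, Hoxb1, Hoxb2, Hoxb4, Hoxb7, Hoxc4, Hoxc8, Hoxc10, Hoxc13, Hoxd1, Hoxd3 and Hoxd8. Their values lay between 3.12 and 4.51 on all arrays, and 1 of them, Hoxb4, touched the filter level on any array. Their differences lay between -0.32 and 0.16. When all named genes were tested, the lowest adjusted p among these 13 was 0.900, and 0.290 with the batch as a replicate block. The lowest mean of a Hox gene past the filter was 4.92 and the highest below it was 4.31. Readings this low cannot be told apart from the array's floor and do not show that a gene is silent.

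**Figure D1:**
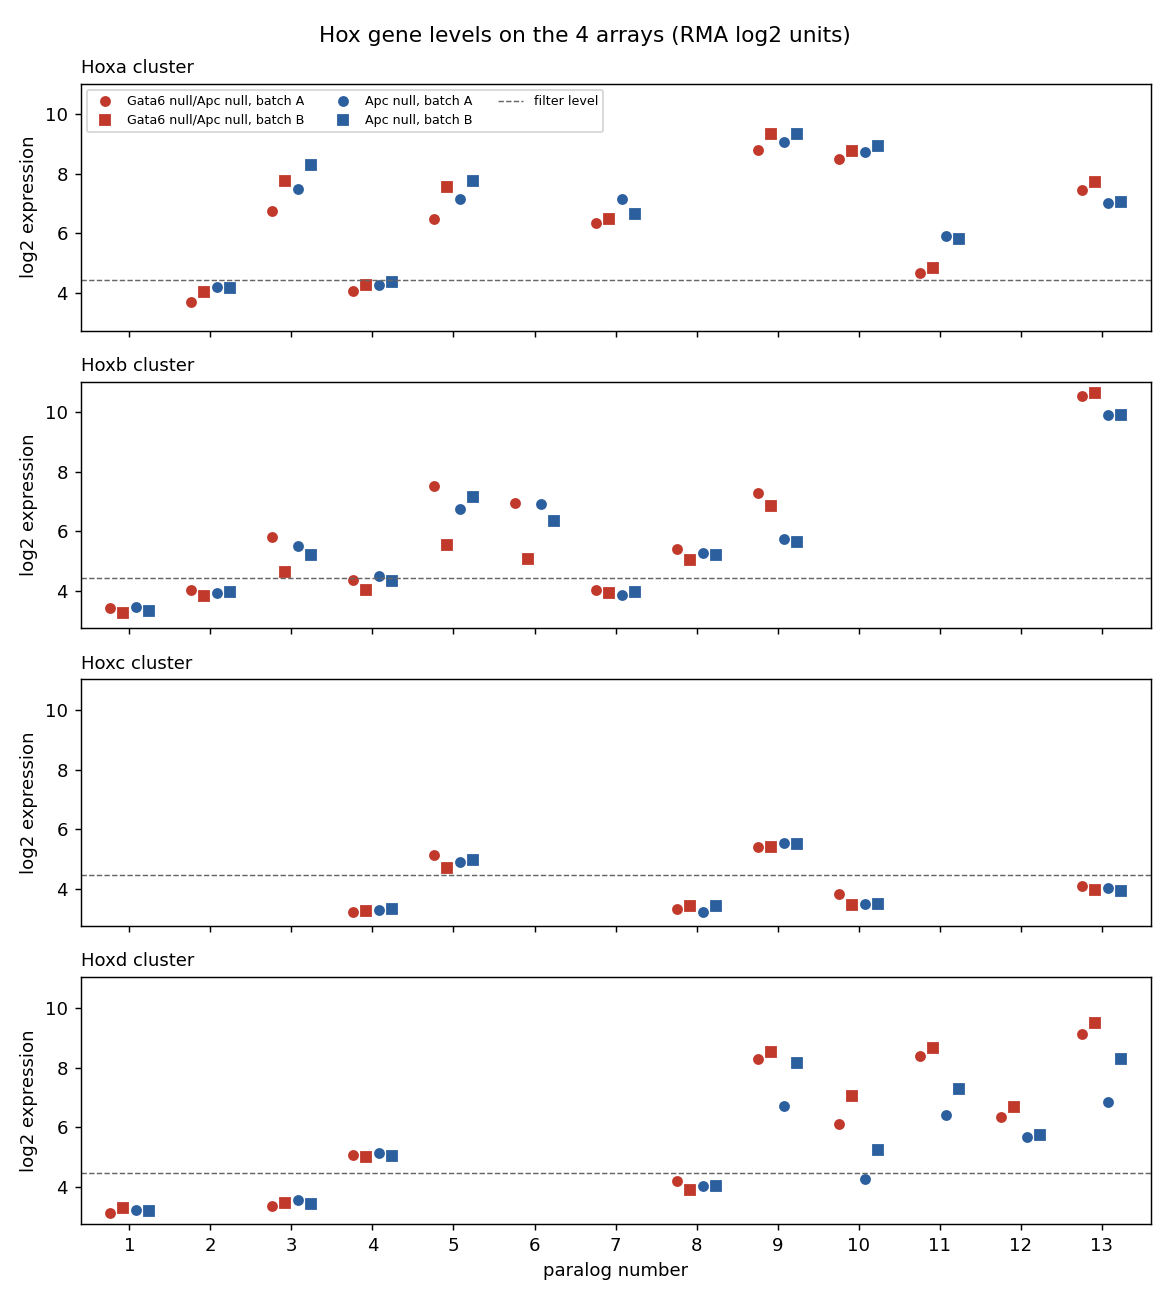
RMA log2 expression (vertical axis) of each Hox gene by paralog number (horizontal axis), with 1 panel per cluster; red points stand for Gata6 null/Apc null and blue points for Apc null, circles batch A and squares batch B. The dashed line is the filter level of 4.45, and 12 of the 14 genes numbered 9 to 13 lie above it on their mean. Levels of different genes come from different probes and are not comparable with each other.

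With genotype as the single term, limma called 0 Hox genes at an adjusted p of 0.05 in either direction, against 0.522% of all 11874 genes tested called higher and 0.126% called lower. At an unadjusted p of 0.05, 6 Hox genes were higher and 1 was lower, against 4.41% and 3.55% of all genes. The batch letter in the labels is shared by 1 array of each genotype, so the arrays were taken as pairs, although the labels do not state a pairing. With that letter as a replicate block, 5 of the 21 tested Hox genes rose (Hoxd13, Hoxd11, Hoxd10, Hoxb13 and Hoxb9) and 1 fell (Hoxa11), all of them with paralog numbers from 9 to 13. In the same fit 3.91% of all genes rose and 2.97% fell. Of the 21 tested Hox genes, 12 are numbered 9 to 13. Of the 11 numbered 1 to 4, 8 were below the filter level and not tested. In the text that follows "rose" and "fell" refer to that blocked fit, which has 1 residual degree of freedom.

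The median difference over the 21 tested Hox genes was -0.04, against -0.03 over all genes tested. By cluster the median was -0.44 for Hoxa, -0.07 for Hoxb, -0.07 for Hoxc (2 tested genes) and 1.32 for Hoxd. In 16 of the 21 genes the difference had the same sign in both batches, against 63.4% of all genes. The arrays of the groups did not overlap for 8 genes that were higher (Hoxa13, Hoxb9, Hoxb13 and Hoxd9 to Hoxd13), against 14.7% of all genes. They did not overlap for 3 genes that were lower (Hoxa7, Hoxa11 and Hoxc9), against 17.3% of all genes. The difference was 1 or more for 4 genes (Hoxb9, Hoxd10, Hoxd11 and Hoxd13) and -1 or less for 1 (Hoxa11), against 3.07% and 2.03% of all genes.

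**Figure D2:**
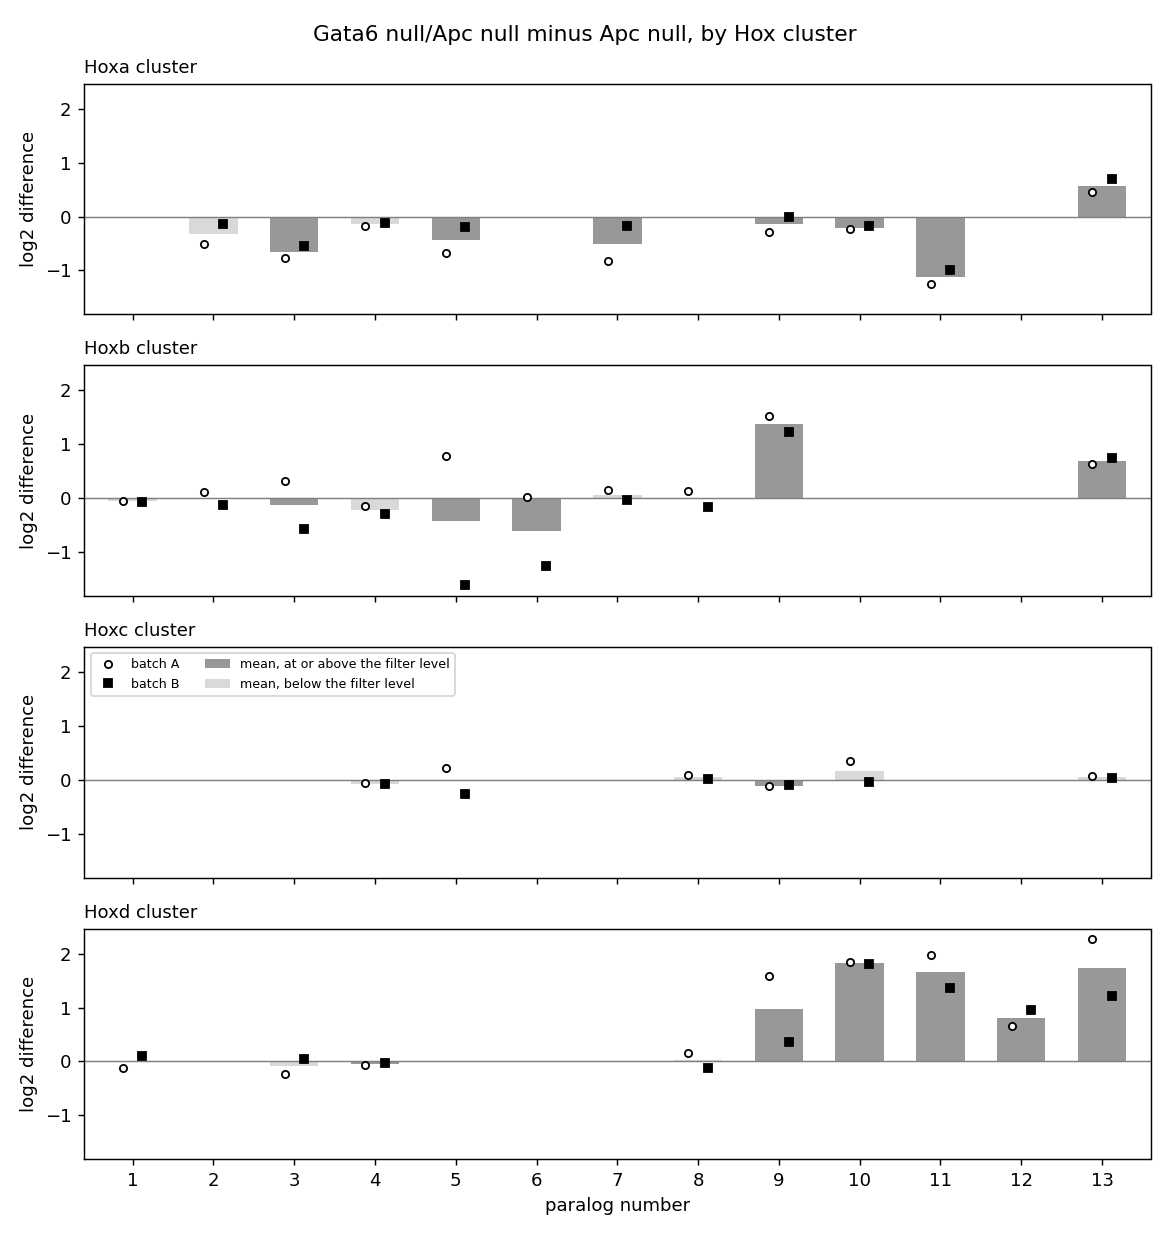
Log2 difference, Gata6 null/Apc null minus Apc null (vertical axis), for each Hox gene by paralog number (horizontal axis), with 1 panel per cluster; bars are means over 2 batches, open circles batch A and filled squares batch B, and light bars are genes below the filter level. Bars above 0.5 stand at paralog numbers 9 to 13 alone, and in Hoxd they form a run from Hoxd9 to Hoxd13.

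The posterior end of the Hoxd cluster held 5 neighbouring genes, Hoxd9 to Hoxd13, that were all higher on the arrays labelled Gata6 null/Apc null, in each batch. Hoxd10, which helps to specify lumbar motor neurons and the distal limb, read 6.10 and 7.03 on the arrays labelled Gata6 null/Apc null, against 4.26 and 5.22 on the Apc null arrays. Both values of the first group lie above both of the second, and the batch A value of Apc null is below the filter level. The difference was 1.82 (SE 0.47, adjusted p = 0.325), with 1.84 in batch A against 1.81 in batch B, and the batch A size may be understated since its Apc null reading is near the floor. With the replicate block the SE was 0.17 and the adjusted p 0.0038. In a bulk culture such a difference cannot be told apart from one in the share of cells that express the gene.

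Hoxd11, a partner of Hoxa11 in forearm and kidney development, read 8.39 and 8.65 on the arrays labelled Gata6 null/Apc null, against 6.41 and 7.29 on the Apc null arrays. The groups did not overlap, and the Apc null arrays differed more from each other than did the arrays labelled Gata6 null/Apc null. The means were 8.52 ± 0.18 and 6.85 ± 0.62 (SD, n = 2 each). The difference of 1.67, or 3.18-fold, had an SE of 0.37 and an adjusted p of 0.233, and with the replicate block an adjusted p of 0.0077.

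Hoxd13, the gene at the end of the cluster and the one whose human counterpart is mutated in synpolydactyly, read 9.13 and 9.51 on the arrays labelled Gata6 null/Apc null, against 6.86 and 8.30 on the Apc null arrays. The Apc null array of batch A is the lowest, and the difference was 2.27 in batch A, against 1.21 in batch B. The means were 9.32 ± 0.27 and 7.58 ± 1.02 (SD, n = 2 each), with a difference of 1.74 (SE 0.52, 3.34-fold, adjusted p = 0.417, and 0.0145 with the replicate block). The blocked call was lost without a mean-variance trend, at an adjusted p of 0.0599. Without the batch A array of Apc null the difference was 1.02, and without the batch B array of Apc null it was 2.46. A second, dimmer Hoxd13 probe set gave 7.85 and 8.29 on the arrays labelled Gata6 null/Apc null, against 6.02 and 7.16 on the Apc null arrays.

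Hoxd12 and Hoxd9 complete the run and are described because they lie in it, a choice made after their values were seen. Hoxd12, a limb patterning gene, read 6.33 and 6.68 on the arrays labelled Gata6 null/Apc null, against 5.67 and 5.73 on the Apc null arrays. Its difference of 0.80 (SE 0.24, adjusted p = 0.415) missed the threshold with the replicate block too, at an adjusted p of 0.0699. Hoxd9, which acts with Hoxa9 in limb and axial patterning, read 8.30 and 8.52 on the arrays labelled Gata6 null/Apc null, against 6.71 and 8.16 on the Apc null arrays. Its difference of 0.98 averaged 1.59 in batch A with 0.36 in batch B, and neither fit called it (adjusted p = 0.863, and 0.123 with the replicate block). Without the batch A array of Apc null the Hoxd9 difference was 0.26. The genes on either side of the run were added after their values were seen. Hoxd8 read 4.18 and 3.90 on the arrays labelled Gata6 null/Apc null, against 4.02 and 4.01 on the Apc null arrays, all below the filter level. Hoxd4 passed the filter with a difference of -0.04. Evx2, the homeobox gene next to Hoxd13 on the outer side of the cluster, read 5.52 and 5.50 on the arrays labelled Gata6 null/Apc null, against 5.53 and 5.53 on the Apc null arrays.

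**Figure D3:**
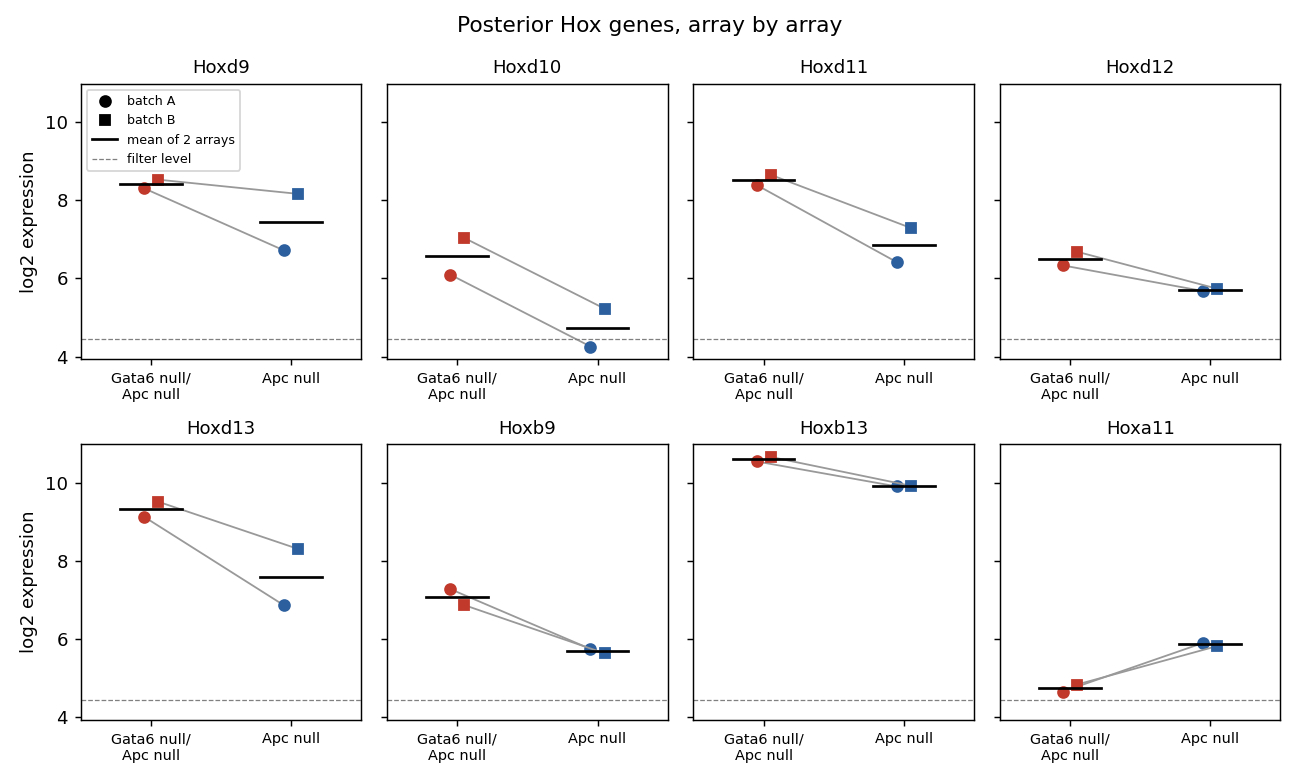
RMA log2 expression (vertical axis) on each array for the Hoxd run, Hoxb9, Hoxb13 and Hoxa11, with arrays labelled Gata6 null/Apc null on the left and Apc null on the right of each panel; circles are batch A, squares batch B, thin lines join arrays of 1 batch, thick bars are means of 2 arrays and the dashed line is the filter level. For Hoxd9 to Hoxd13 and for Hoxb13 the Apc null array of batch A is the lowest of the 4, for Hoxd12 and Hoxb13 by little. For Hoxa11 both Apc null arrays lie above both others.

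The stretches before the transcription start of Hoxd10 to Hoxd13, and of Hoxa11, which fell, are shown so that their bases can be read beside these values. They come from RefSeq annotation of the mouse build GRCm38.p6, in which 21 of the 34 members had an entry, and each holds the 250 bases before an annotated start, 5′ to 3′ on the strand of the gene. Capitals mark matches to a GATA motif (AGATAA with its variant AGATAG, and TGATAA with its variant TGATAG) or to a TCF/LEF motif of the Wnt pathway (CTTTGAA with its variant CTTTGAT, and CTTTGTA with its variant CTTTGTT) on either strand. The windows are chr2:74667975-74668224 for Hoxd13, chr2:74674763-74675012 for Hoxd12, chr2:74682073-74682322 for 1 of 2 starts of Hoxd11 and chr2:74691641-74691890 for Hoxd10, all on the plus strand, and chr6:52245811-52246060 for Hoxa11 on the minus strand.
Hoxd13: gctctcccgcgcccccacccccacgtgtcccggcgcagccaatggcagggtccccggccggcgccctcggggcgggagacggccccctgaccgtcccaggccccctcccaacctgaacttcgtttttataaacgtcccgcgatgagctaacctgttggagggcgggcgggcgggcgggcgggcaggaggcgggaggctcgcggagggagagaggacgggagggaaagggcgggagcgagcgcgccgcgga
Hoxd12: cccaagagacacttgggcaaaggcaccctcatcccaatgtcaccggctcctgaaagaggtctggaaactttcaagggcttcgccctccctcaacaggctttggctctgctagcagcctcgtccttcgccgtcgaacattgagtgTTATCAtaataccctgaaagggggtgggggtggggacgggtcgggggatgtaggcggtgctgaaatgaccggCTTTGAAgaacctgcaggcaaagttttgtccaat
Hoxd11: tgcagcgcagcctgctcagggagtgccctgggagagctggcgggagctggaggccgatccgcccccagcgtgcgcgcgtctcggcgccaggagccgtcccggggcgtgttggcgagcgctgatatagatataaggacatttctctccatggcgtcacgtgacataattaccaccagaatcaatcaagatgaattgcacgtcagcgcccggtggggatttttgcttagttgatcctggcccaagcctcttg
Hoxd10: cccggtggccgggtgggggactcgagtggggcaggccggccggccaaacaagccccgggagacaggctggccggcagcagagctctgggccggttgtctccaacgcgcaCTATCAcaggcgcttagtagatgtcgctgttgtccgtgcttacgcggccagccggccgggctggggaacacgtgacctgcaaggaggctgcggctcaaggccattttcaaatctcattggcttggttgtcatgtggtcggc
Hoxa11: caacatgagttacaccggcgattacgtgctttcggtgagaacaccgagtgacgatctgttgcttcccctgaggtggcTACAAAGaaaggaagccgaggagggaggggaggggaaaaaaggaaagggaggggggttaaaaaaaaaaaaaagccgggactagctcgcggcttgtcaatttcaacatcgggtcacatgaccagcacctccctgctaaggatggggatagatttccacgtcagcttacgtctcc
The windows of Hoxd13 and Hoxd11 held neither motif, and the same was true of the windows of the other Hoxd11 start and of Hoxd9, which are not printed. The Hoxd12 window held a GATA match beginning 106 bases before the start and a TCF/LEF match at 34 bases, the Hoxd10 window a GATA match at 141 bases and the Hoxa11 window a TCF/LEF match at 173 bases. Across the 24 windows of Hox genes, 25.0% held a GATA match and 12.5% a TCF/LEF match, against 26.5% and 14.8% of all 32851 windows of that length. The median GC content was 58.6% in the Hox windows, against 52.4% in all windows. Such a match is a string of bases and not a measured binding site.

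In the Hoxb cluster Hoxb9 and Hoxb13 rose, and the genes with lower numbers did not pass either fit. Hoxb9, a gene of thoracic and mammary patterning, read 7.28 and 6.87 on the arrays labelled Gata6 null/Apc null, against 5.75 and 5.64 on the Apc null arrays. The groups were well apart, with means of 7.07 ± 0.29 and 5.69 ± 0.08 (SD, n = 2 each). The difference was 1.38 (SE 0.26, 2.61-fold, adjusted p = 0.161, and 0.0128 with the replicate block), of which batch A showed 1.53 and batch B 1.23. Hoxb13, which limits growth of the tail region in the embryo and marks distal colon and prostate epithelium, read 10.54 and 10.66 on the arrays labelled Gata6 null/Apc null, against 9.90 and 9.92 on the Apc null arrays. Replicates lay close together in both groups. The Hoxb13 difference was 0.69 (SE 0.12, 1.61-fold, adjusted p = 0.149, and 0.0079 with the replicate block), and without a mean-variance trend the blocked adjusted p was 0.0771.

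Hoxb5 and Hoxb6 are given because their batches disagreed, a choice made after their values were seen. Hoxb5, which acts in the neural crest that forms the enteric nervous system, read 7.54 and 5.53 on the arrays labelled Gata6 null/Apc null, against 6.76 and 7.15 on the Apc null arrays. Batch A gave a difference of 0.78 and batch B one of -1.62. Hoxb6, its neighbour, read 6.95 and 5.08 on the arrays labelled Gata6 null/Apc null, against 6.92 and 6.33 on the Apc null arrays. The batch B array labelled Gata6 null/Apc null is the lowest of the 4 for both genes, and also for Hoxb3, which patterns the hindbrain, at 4.64 on that array against 5.83 on the batch A array of the same group. Neither fit called any of the 3. Hoxb8 had a difference of -0.01 from a probe set whose name carries the suffix for probes that match several transcripts.

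In the Hoxa cluster the gene that fell was Hoxa11, known for its role in the uterus, forearm and kidney. It read 4.66 and 4.84 on the arrays labelled Gata6 null/Apc null, against 5.90 and 5.82 on the Apc null arrays. Each group was tight, at 4.75 ± 0.13 and 5.86 ± 0.06 (SD, n = 2 each), and the lower group lay just above the filter level. The difference was -1.11 (SE 0.18, adjusted p = 0.118, and 0.0181 with the replicate block), or -1.24 in batch A, against -0.98 in batch B. Hoxa13, a gene of hindgut, genital and digit formation, was higher, at 7.47 and 7.75 on the arrays labelled Gata6 null/Apc null, against 7.03 and 7.06 on the Apc null arrays. That difference of 0.57 passed neither fit (adjusted p = 0.715, and 0.129 with the replicate block), and Hoxa13 is named as the paralog of Hoxb13 and Hoxd13, after its values were seen.

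The other Hoxa genes past the filter all had differences below 0 that passed neither fit. Hoxa3, a gene of thymus and parathyroid development, had a difference of -0.66, and its 4 probe sets all had a difference below 0. The difference was -0.44 for Hoxa5, -0.50 for Hoxa7, -0.14 for Hoxa9 and -0.21 for Hoxa10. In the Hoxc cluster, the differences of the 2 genes past the filter were -0.02 for Hoxc5 and -0.11 for Hoxc9, and neither fit called them. Read by paralog group, numbers 9 to 13 thus held a fall in Hoxa11 beside a rise in Hoxd11, and Hoxa9 and Hoxa10 were called by neither fit beside the rise of Hoxb9 and Hoxd10.

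Several Hox genes differed between batches within a genotype. In both genotypes 11 of the 21 tested Hox genes were higher in batch B, 5 of them in Hoxa, 1 in Hoxb and 5 in Hoxd, against 30.5% of all genes. A further 6 were lower in batch B in both genotypes, against 42.9% of all genes. In the blocked fit the batch term called 3 Hox genes higher in batch B, against 7.53% of all genes, and 0 lower, against 9.12%. The batch B minus batch A difference averaged 0.91 for Hoxa3 (adjusted p = 0.0211), 0.83 for Hoxa5 (adjusted p = 0.0396) and 0.95 for Hoxd10 (adjusted p = 0.0225). The labels do not say what the batch letter stands for. Over the tested Hox genes the median genotype difference of batch A was 0.23 and that of batch B -0.10, against -0.05 and -0.01 over all genes.

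**Figure D4:**
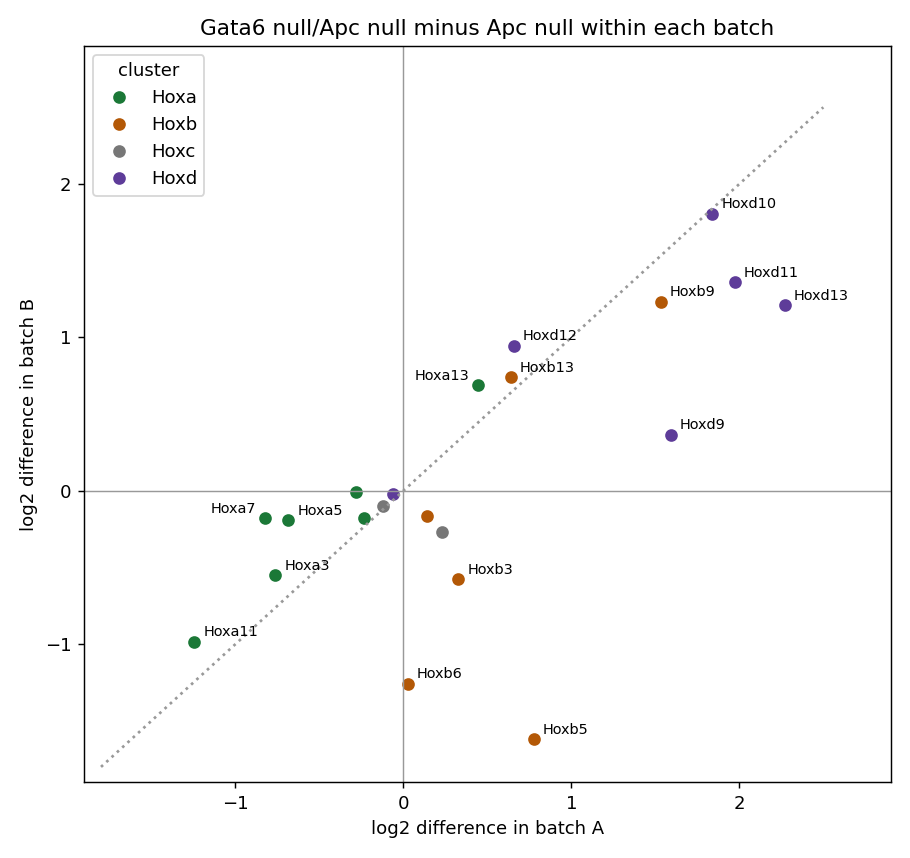
Log2 difference, Gata6 null/Apc null minus Apc null, in batch A (horizontal axis) and in batch B (vertical axis) for the 21 tested Hox genes, coloured by cluster, with the dotted line where both batches are equal. Hoxd10 lies near the line, Hoxd9, Hoxd11 and Hoxd13 below it, and Hoxb5 has opposite signs at 0.78 and -1.62.

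The 34 genes had 42 probe sets in all, and 6 genes had several. Differences of the 4 further probe sets that reached the filter level shared the sign of the chosen set. In the RefSeq table the spans of Hoxd10 and Hoxd11, of Hoxd3 and Hoxd4, of Hoxb3 and Hoxb4, and of Hoxa3 with its neighbours overlap, so a probe in the shared stretch could read either gene. The labels do not say whether the amplification retained strand, so antisense transcripts of the clusters cannot be told apart from the Hox transcripts. Of a list of 10 antisense and long non-coding RNAs of the clusters, 3 were on the array (Hoxa11os, Hoxb5os and Hoxd3os1), and all 3 were below the filter level.

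Partners and neighbours of the Hox system were read from lists of related genes. Over all genes tested, 0.522% were called higher and 0.126% lower without the block, and 3.91% and 2.97% with it. Of the TALE class cofactors, which bind DNA together with Hox proteins, 8 of 9 were on the array and past the filter, and 1 rose in both fits. That gene, Meis2, read 6.83 and 6.85 on the arrays labelled Gata6 null/Apc null, against 4.05 and 3.96 on the Apc null arrays, which are below the filter level. Meis2 thus passed the filter only through the arrays on which it is high, so its being tested and counted is not independent of its difference. With no filter on dim genes its adjusted p was 0.0143, and 8.2e-05 with the block. Averaged over its 2 probe sets, Meis2 lay below the filter level and was not tested. The difference of its brighter probe set, 2.84 as measured, is not exact in size against readings near the floor (SE 0.17, adjusted p = 0.0141, and 0.0007 with the replicate block). It missed the threshold at an adjusted p of 0.0713 when either Apc null array was left out.

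Of the 8 ParaHox and Evx genes, 5 passed the filter, 1 rose in both fits and 1 fell in the blocked fit. In the blocked fit 3.91% of all genes rose and 2.97% fell. Evx1, the homeobox gene next to Hoxa13, read 9.60 and 9.63 on the arrays labelled Gata6 null/Apc null, against 7.29 and 6.95 on the Apc null arrays. The groups lie far apart and the difference was 2.49 (SE 0.23, adjusted p = 0.0314, and 0.0008 with the replicate block), while the adjusted p was 0.0713 to 0.102 when any single array was left out. Cdx2, the ParaHox regulator of intestinal identity, read 7.29 and 8.11 on the arrays labelled Gata6 null/Apc null, against 9.13 and 9.41 on the Apc null arrays. Its difference was -1.57 (SE 0.34, adjusted p = 0.228, and 0.0054 with the replicate block).

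Of 16 genes of the retinoic acid pathway, a regulator of Hox activity in the embryo, 10 passed the filter. In the blocked fit 1 rose and 1 fell, against 3.91% and 2.97% of all genes. Aldh1a1, a retinaldehyde dehydrogenase, read 5.99 and 5.44 on the arrays labelled Gata6 null/Apc null, against 8.59 and 8.26 on the Apc null arrays, a difference of -2.71 (adjusted p = 0.0553, and 0.0010 with the replicate block). Rxra, a retinoid X receptor, read 8.54 and 8.31 on the arrays labelled Gata6 null/Apc null, against 7.74 and 7.54 on the Apc null arrays (difference 0.78, adjusted p = 0.411, and 0.0288 with the replicate block, which was 0.0585 without a mean-variance trend). Of 23 Polycomb group genes, which keep Hox genes silent, 19 passed the filter and 1 rose in the blocked fit, against 3.91% of all genes. That gene, the methyltransferase gene Ezh2, had a difference of 0.55 (adjusted p = 0.0488 with the block, and 0.957 without it). The call was lost without a mean-variance trend (0.118). Of 12 Trithorax group and H3K27 demethylase genes, 8 passed the filter and 0 were called by limma in either fit. The members with the smallest p without the block were Kdm6a, with a difference of 0.23, and Rbbp5, with 0.10.

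Of 6 GATA factors 2 passed the filter and both rose in the blocked fit, in which 3.91% of all genes rose. Gata2, a haematopoietic and endothelial member of the family, read 5.28 and 5.76 on the arrays labelled Gata6 null/Apc null, against 4.24 and 4.59 on the Apc null arrays (measured difference 1.11, adjusted p = 0.232, and 0.0129 with the replicate block). Its Apc null mean of 4.42 is below the filter level, which Gata2 passed only through the higher group. That size is therefore not exact, and the testing and counting of Gata2 are not independent of its difference. With no filter on dim genes its adjusted p was 0.268, and 0.0073 with the block. Gata6 had a difference of 0.64 (adjusted p = 0.418, and 0.0392 with the replicate block, which was 0.117 without a mean-variance trend).

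Hox genes are also strongly expressed by gut mesenchyme, so markers of other cell types were read on the same arrays. Of 10 fibroblast and mesenchyme markers 3 passed the filter, and Col1a1, Col1a2, Col3a1, Pdgfra, Lum, Thy1 and Des were below it. The mean level of all 10 was 4.26 and 4.21 on the arrays labelled Gata6 null/Apc null, against 4.26 and 4.28 on the Apc null arrays. For enteric neurons and glia, with 3 of 5 markers past the filter, it was 4.75 and 4.49, against 4.73 and 4.69. For endothelium, with 2 of 4 past it, it was 4.34 and 4.12, against 4.36 and 4.19. For immune cells the mean was 3.86 and 4.19, against 3.97 and 4.31, and the 1 marker of 5 past the filter was Cd68, at 4.94 and 7.23 on the arrays labelled Gata6 null/Apc null, against 5.92 and 7.57 on the Apc null arrays. Cd68 was thus higher in batch B in both genotypes, as were Hoxd9 to Hoxd13, and its part in the Hox differences was not tested. Neither fit called a marker of these 4 types, and the blocked fit called Cdx2 alone of the epithelial markers. Over all genes tested, 3.91% rose and 2.97% fell in the blocked fit. Without the block 0.522% were called higher and 0.126% lower.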

How the data were processed

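RNA from 4 organoid cultures was hybridised to 1-colour Affymetrix perfect-match arrays. Per the labels' protocols, 25 ng of total RNA with an integrity number of at least 9 was amplified and 8 µg of cDNA labelled. Per the submitters' processing notes, the authors deposited RMA log2 values of each probe set, computed with affy (no version named). RMA equalises array distributions and compresses low values.

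Of 45141 probe sets, 104 controls were left out. The platform annotation gave 1 gene to 28898, several to 551, which named none, and none to 15588. Entrez identifiers matched RefSeq for 28689 and changed 0 symbols. The probe set with the highest mean stood for each gene, and 11874 genes passed the filter.

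The genotypes were tested in limma 3.58.1 under R 4.3.3 (lmFit, eBayes with trend), two-sided, and p-values were adjusted over all genes by Benjamini-Hochberg. Residual degrees of freedom were 2, plus 2.83 from moderation, and 1 plus 4.99 with the batch letter as a block. The pairing was inferred from the shared letter, whose meaning the labels do not give. Batch B minus batch A differences of the genotypes correlated at 0.675 across genes. The replicates are called biological, but separate mice are not stated, so p-values may measure technical spread, and culture and genotype cannot be told apart. Precision is limited by having 4 arrays.

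The members, related lists and tests were chosen with earlier results of these data known. Array values are given for Hox genes called by either fit or with an absolute difference of at least 1, and for related genes called by either fit (at most 4 a list, otherwise the 2 with the smallest p); other Hox genes are given by differences, and additions are marked. Alternatives were the replicate block, filters, mean of probe sets, moderation without trend, median centring and leaving out each array.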

Additional observations from a re-analysis of the deposited data

How the results depend on the processing

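The replicate block changed the counts of called Hox genes most, with 5 called higher and 1 lower, and it called 817 genes of all tested, against 77 without it. Leaving out 1 array at a time called 0 Hox genes in either direction by limma, and 33 to 130 of all genes. With the block, moderation without a trend called 3 Hox genes higher, losing Hoxd13 (adjusted p = 0.0599) and Hoxb13 (0.0771). Centring each array on its median called 8 higher and 2 lower, adding Hoxd9, Hoxd12 and Hoxa13, and Hoxa3 among the lower. Centring also lowered the blocked adjusted p of Evx1, which is not a member, from 0.0008 to 1.4e-12. For the alternatives with the block, calls over all genes tested were not counted, so these Hox counts have no share to be set against. The 60th percentile filter called 4 higher and 0 lower, since Hoxd10 and Hoxa11 fell below its level of 5.76 and were not tested. Averaging the probe sets of each gene added Hoxd12 (0.0436), although Hoxd12 has 1 probe set and its difference stayed at 0.80. Its own values were thus not changed by the averaging. Without 1 array, differences changed sign for 8 genes: they ran from -0.98 to 0.10 for Hoxa5, -0.41 to 0.13 for Hoxa9, -0.72 to 0.47 for Hoxb3, -1.43 to 0.58 for Hoxb5, -1.55 to 0.32 for Hoxb6, -0.20 to 0.18 for Hoxb8, -0.23 to 0.20 for Hoxc5 and -0.10 to 0.017 for Hoxd4. Hoxb8 was also at 0.0013 after centring, in both fits. The ranges without 1 array were 1.02 to 2.46 for Hoxd13, 1.23 to 2.10 for Hoxd11, 1.34 to 2.31 for Hoxd10, 1.18 to 1.59 for Hoxb9, 0.63 to 0.75 for Hoxb13 and -1.20 to -1.03 for Hoxa11. The median Hox difference ran from -0.07 to 0.32. With the block, Rxra lost its call with the mean of probe sets (0.148) and without the trend (0.0585), as did Ezh2 (0.0529 and 0.118) and Gata6 (0.0765 and 0.117). A paired fit without 1 array could not be made, as no residual degree of freedom is left. The causes of these changes were not tested.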
